A study of Rattus norvegicus with 18 samples.

Results

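The cytosolic ribosome of rat liver is described here through 70 ribosomal protein genes, 43 of the large subunit and 27 of the small, out of 18926 genes measured. A gene was taken when its single platform symbol was Rpl or Rps with a number and at most one of the letters a, x or l after it, or was Rplp0, Rplp1, Rplp2 or Rpsa. These genes were covered by 109 transcript clusters, probe sets that each span a gene, of 24753 clusters in the table, and the brightest cluster of each gene was used. Some ribosomal protein genes were not analysed here. The 70 include Rps27l and Rpl3l, paralogs of Rps27 and Rpl3.

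Sprague Dawley rat liver was sampled at 6 ages, and total RNA of 3 samples per age was hybridised to Affymetrix Rat Transcriptome 1.0 arrays (18 in all). The fetal group was taken by C-section at embryonic day 21 (E21) and killed before the first breath. The other groups were killed 30 min, 4 h, 12 h, 1 day or 7 days after a birth that had been watched. No treatment or genotype is named for any group. Livers came from triplicate dams, and p-values measure only how far these samples scatter. Sex, batch and the number of pups behind a sample are not in the labels. Of 10 hepatocyte markers 9 were matched. Alb, Ahsg and Fgb lay at or near the top of the table, where a change is hidden or hard to see, and the summed intensity of the other 6 ran from 2011000 to 2717000 over the 18 arrays. Among these 6, Ttr read 18.9 to 19.6 and Serpina1 7.33 to 7.59, each nearly the same on most arrays. The sum therefore does not show whether hepatocyte content was steady. Array medians lay between 6.28 and 6.39 on the log2 scale, so each value is relative to the other RNAs of its array.

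The cytosolic ribosome joins a small subunit, which reads the mRNA, to a large subunit, which forms peptide bonds. Hepatocytes hold many ribosomes because they secrete most plasma proteins, and ribosome number in growing liver is known to follow mTORC1, Myc and RNA polymerase I. In vertebrates the mRNAs of nearly all ribosomal proteins begin with a C and an unbroken run of pyrimidines, the 5′ terminal oligopyrimidine (TOP) tract, through which mTORC1 controls how much of each mRNA is translated. The arrays measured mRNA level and not translation.

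RefSeq promoter sequences (build GRCr8) were matched to 60 of the 70 genes. They are shown because the start of the transcript carries the TOP tract. Each sequence runs from 10 bases before the annotated start to its 20th transcribed base, and capitals mark the run of C and T that begins at the start. The genes shown include some that fell at 7 days (Rplp0, Rpl22, Rps27, Rps24, Rps12) and some that did not pass (Rpl10, Rpl28, Rps27l).
Rplp0: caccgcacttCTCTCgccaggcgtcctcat
Rpl22: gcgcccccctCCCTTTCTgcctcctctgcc
Rps27: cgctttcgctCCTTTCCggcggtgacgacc
Rps24: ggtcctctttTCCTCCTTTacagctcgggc
Rps12: gaagcccagcagagcgcttaaataccgtca
Rpl10: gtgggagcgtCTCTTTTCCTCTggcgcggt
Rpl28: cccctagtgtCTTTCTTTCCgtctccggcc
Rps27l: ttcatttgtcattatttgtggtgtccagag
The Rplp0 sequence lies at chr12:46718371-46718400 on the minus strand, Rpl22 at chr5:168117951-168117980 on the plus strand and Rps27 at chr2:177964587-177964616 on the minus strand. Rps24 lies at chr16:96507-96536, Rps12 at chr1:23500065-23500094, Rpl10 at chrX:157205840-157205869 and Rps27l at chr8:76443648-76443677, all on the plus strand, and Rpl28 at chr1:78083513-78083542 on the minus strand.

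A C at the annotated start followed by at least 4 bases that are each C or T was present in 22 of the 60 promoters (36.7%). The same letters were found in 881 of 33469 RefSeq promoters (2.63%), a count in which genes with several starts enter more than once. Only the transcribed strand was searched. When the run was allowed to begin within 10 bases on either side of the start, 45 of 60 held one (75%), against 28.9% of all promoters. Annotated starts can miss the true first base by a few bases. The Rps24 start above is a T within a pyrimidine run. Of the 22 genes with the letters at the start, 17 were lower at 7 days than at E21, and of the 38 without them 27 were lower. Among genes outside the rule, 54 of 412 with the letters (13.1%) and 1483 of 14914 without them (9.94%) were lower. These counts were not tested.

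At E21 the 70 genes read between 5.03 and 19.65 on the log2 scale of the deposited intensities. Probe sets differ in brightness, so levels are not ordered between genes. The highest readings were those of Rps29 (19.65), Rplp1 (18.71) and Rps4x (17.60). The lowest were those of Rpl3l (5.03), which is a paralog of Rpl3 known from striated muscle, Rpl26 (5.85) and Rpl35 (6.74). Rpl3l and Rpl26 lay below the median of every array, and a change there would be hard to see.

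From E21 through the first day of life no ribosomal protein gene passed the test. Each gene was compared between ages with limma, with Benjamini-Hochberg adjustment over all 18926 genes and a threshold of 0.05. None of the 70 passed at 30 min, 4 h, 12 h or 1 day against E21, where 0%, 4.71%, 5.94% and 5.08% of all genes did. None passed at 4 h against 30 min, 12 h against 4 h or 1 day against 12 h, where 0.983%, 8.9% and 0.037% of all genes passed. At an unadjusted p under 0.05 the members numbered 1, 1, 2 and 3 in the 4 comparisons with E21 and 1, 1 and 0 in the 3 between neighbouring ages. Of all genes 7.355%, 17.4%, 17.71% and 17.6%, and 11.34%, 20.44% and 6.409%, had such a p in the same comparisons. The smallest adjusted p among the members in these 7 comparisons was 0.131, for Rpl8 at 12 h against E21 (log2 change 0.45 ± 0.16 SE), a gene whose protein lies close to the peptidyl transferase centre. With array weights the test called Rpl10 higher at 4 h against E21 and lower at 12 h against 4 h, Rpl8 higher at 12 h against E21, and Rpl12 lower at 12 h against 4 h (named after their values were seen).

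The median log2 change of the 70 genes against E21 was −0.01 at 30 min, 0.08 at 4 h, −0.01 at 12 h and 0.05 at 1 day, beside −0.01 to 0.01 over all genes. Per gene, the means of the first 5 ages spanned a median of 0.23 log2 units and at most 0.74. Rpl38, known for its part in the translation of Hox mRNAs in mice, gave the 0.74, with readings of 14.85, 14.92 and 14.48 at E21 and 15.98, 15.38 and 15.10 at 4 h. It was also the most variable gene within ages (SD 0.48), followed by Rpl18 (0.38), Rps14 (0.37), Rpl35a (0.35) and Rpl39 (0.35). The median SD within ages was 0.22 for the 70 genes and 0.19 for all genes.

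**Figure D1:**
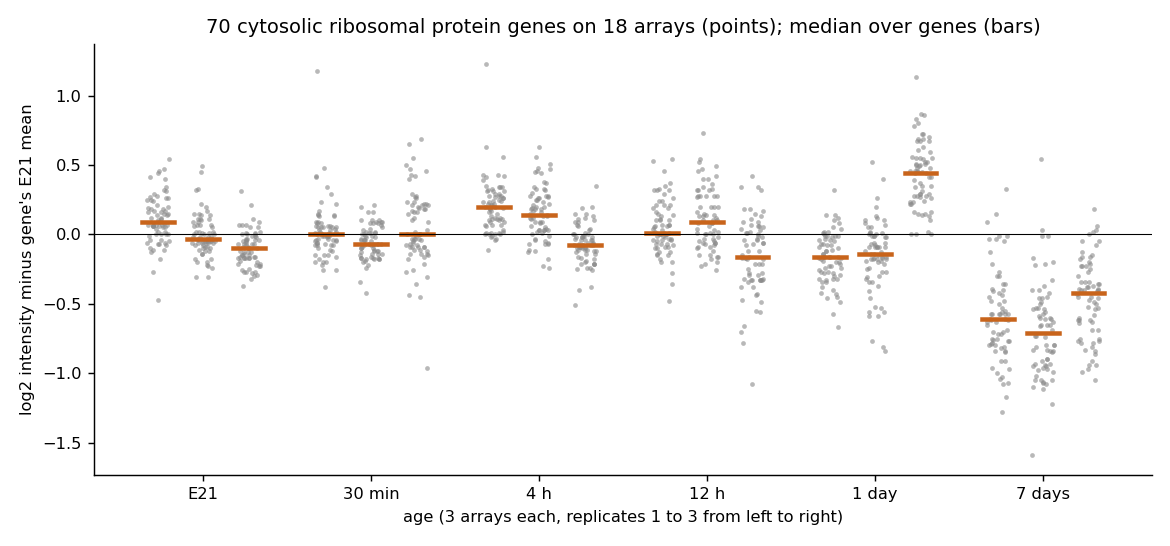
Each point is 1 of the 70 genes on 1 array, as log2 intensity minus that gene's E21 mean, and bars are medians over genes for replicates 1 to 3 of each age. The bars of 7 days (−0.61, −0.71 and −0.42) lie below all other arrays, and the third array of 1 day (0.44) lies above all others.

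Single arrays moved the members together. On the third array of 1 day the median over the 70 genes, relative to their E21 means, was 0.44, against −0.16 and −0.14 on the other arrays of that age, and 68 of the 70 genes read highest there. On the third arrays of 4 h and of 12 h it was −0.08 and −0.16, and 57 and 55 genes were at the lowest of their age. Without the third array of 1 day the median change at 1 day against E21 was −0.13 instead of 0.05. The test then called 2 members lower at 1 day, Rpl23a (−0.46, limma adjusted p = 0.0462) and Rps25 (−0.76, limma adjusted p = 0.0116), named after their values were seen. The other genes with TOP mRNAs listed below read 0.33 and the Myc and polymerase I genes 0.43 on that array, and mitochondrial ribosomal proteins 0.22. What set this array apart was not tested.

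By 7 days the mRNAs of most cytosolic ribosomal proteins had fallen. Against E21, 49 of the 70 genes passed, and all 49 were lower. Of all genes 22.8% passed in either direction, and 10% of all genes passed as lower. The median log2 change of the 70 was −0.58, beside 0.01 over all genes. Among the genes that passed the fall ran from 0.30 to 1.17 on the log2 scale. In 57 of 70 genes all 3 arrays of 7 days lay below the 3 of E21 (17% of all genes), and in 46 they lay below all 15 other arrays (7.37% of all genes). The lowest of the 6 age means was that of 7 days in 64 genes, a count not set beside all genes here. Over all ages, 40 of the 70 passed limma's F test, against 31.3% of all genes.

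The count rested in part on single arrays. It was 29 without the second array of 7 days and 30 without the first of E21, and 52 at most, and all calls were lower. Of the 49 genes, 24 passed whichever of the 18 arrays was left out. In bulk RNA, fewer cells of a type and less RNA per cell cannot be told apart.

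**Figure D2:**
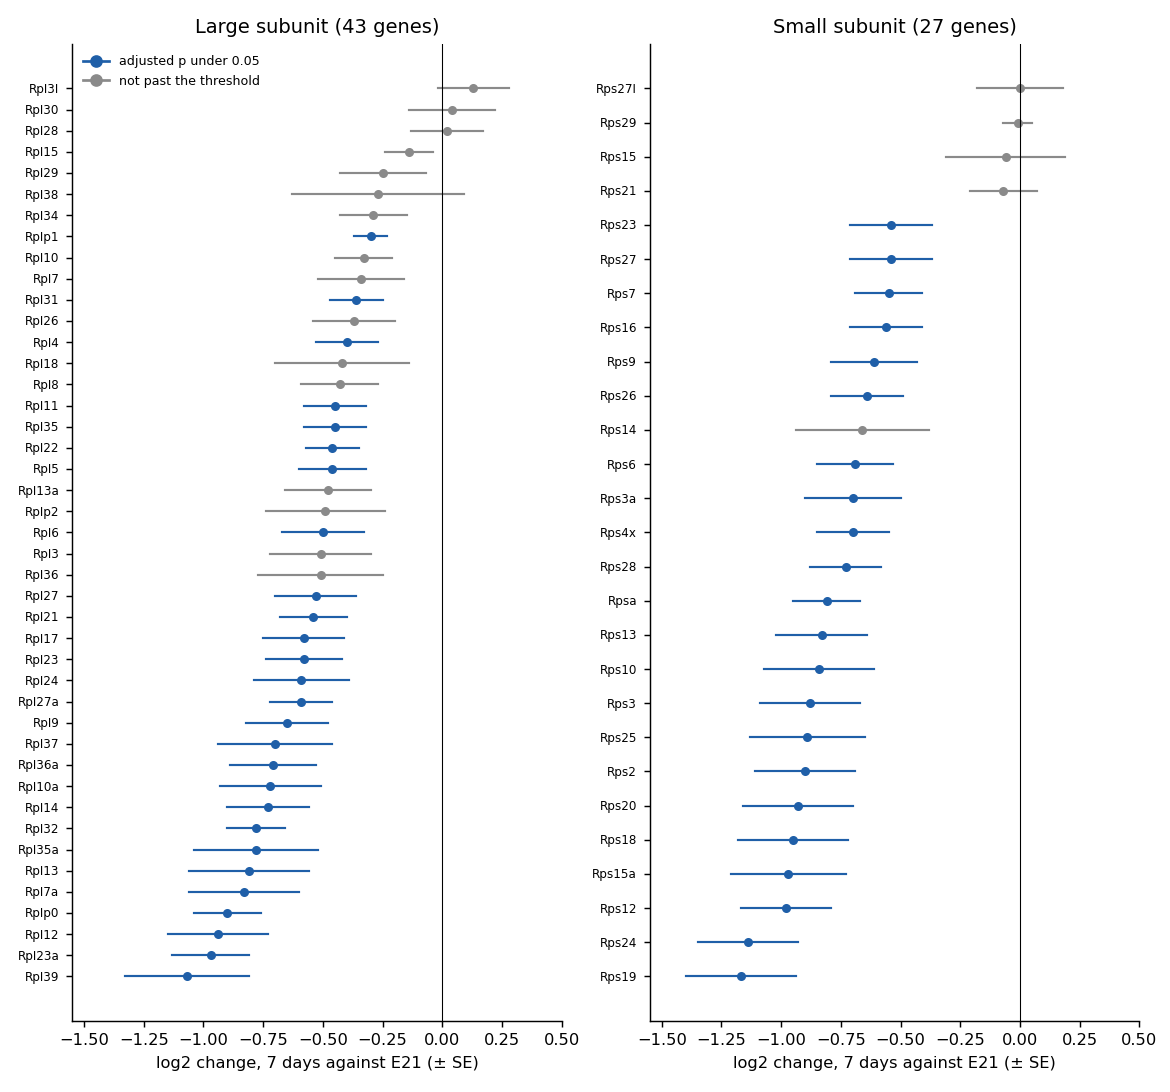
The log2 change at 7 days against E21 with its standard error is shown for the 43 large-subunit and the 27 small-subunit genes, blue where the limma adjusted p was under 0.05. Nearly all points lie left of 0, with Rps19 (−1.17) and Rps24 (−1.14) farthest, and 4 small-subunit genes (Rps15, Rps21, Rps27l and Rps29) lie at or near 0.

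The stalk of the large subunit, which recruits elongation factors, was measured through its base Rplp0 and the acidic proteins Rplp1 and Rplp2. Rplp0 read 15.79, 15.63 and 15.60 at E21, 15.64, 15.63 and 15.31 at 30 min, 15.68, 15.63 and 15.60 at 4 h, 15.62, 15.99 and 15.34 at 12 h, 15.68, 15.54 and 15.82 at 1 day, and 14.89, 14.72 and 14.70 at 7 days. Its 7 day arrays stood apart below all 15 others, which overlapped one another. The change against E21 was −0.90 ± 0.14, or 1.87-fold lower (limma adjusted p = 0.0002809), and this call held under all 27 alternatives recomputed for single genes, which include leaving out each array.

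Rplp1 was bright and nearly even before 7 days, with all 15 arrays between 18.69 and 18.81, and then read 18.44, 18.31 and 18.50. Those arrays also lay below all others, by a smaller step of −0.30 ± 0.07 (limma adjusted p = 0.006248). The call was lost under quantile normalization, with a trended, robust prior and with only the 2 ages in the fit. Rplp2 read 15.55, 16.06 and 15.58 at E21 and 15.43, 14.74 and 15.53 at 7 days. The arrays of each age scattered widely, and the change of −0.49 ± 0.25 did not pass (limma adjusted p = 0.1868). Rpl12, which lies at the base of the stalk, had one of the widest ranges of age means (1.17) and changed by −0.94 ± 0.21 (limma adjusted p = 0.003842).

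In the small subunit 22 of 27 genes fell at 7 days against E21, with a median change of −0.70. In the large subunit 27 of 43 fell, with a median of −0.50. Against 1 day the subunits were alike, with 20 of 27 small-subunit genes lower (median −0.67) and 29 of 43 large-subunit genes (median −0.66). The difference between subunits was not tested. Rps19 and Rps24, both mutated in the human red cell disorder Diamond-Blackfan anaemia, had the largest falls. Rps24 read 12.11, 12.34 and 12.11 at E21, 12.27, 12.07 and 11.93 at 30 min, 12.45, 12.47 and 12.10 at 4 h, 12.10, 12.47 and 11.75 at 12 h, 12.07, 12.10 and 12.86 at 1 day, and 10.91, 10.97 and 11.25 at 7 days. All 3 arrays of 7 days lay clearly under the rest, and the change was −1.14 ± 0.21, or 2.21-fold lower (limma adjusted p = 0.0009685). These readings are of the brightest Rps24 cluster, which is named for another chromosome than the start shown above. A dimmer cluster, named for the chromosome of that start, averaged 7.77 at E21 and 6.81 at 7 days (−0.96 ± 0.2). Rps19 read 15.02, 14.37 and 14.27 at E21 and 13.58, 12.96 and 13.61 at 7 days, with no overlap. Its change was −1.17 ± 0.23, or 2.25-fold lower (limma adjusted p = 0.001703).

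Rpsa, also known as a laminin receptor, read 13.36, 13.13 and 13.16 at E21 and 12.44, 12.31 and 12.46 at 7 days. No array of another age reached down to these 3, and the fall was 1.75-fold (limma adjusted p = 0.000477). Rps6, the substrate of the S6 kinases that act downstream of mTORC1, read 11.71, 11.47 and 11.40 at E21 and 10.78, 10.72 and 11.01 at 7 days. The arrays again did not overlap, and the change was −0.69 ± 0.16 (limma adjusted p = 0.004848). Rps3, which lines the mRNA entry channel, fell by 0.88 ± 0.21 (limma adjusted p = 0.006945). Rps4x, whose human gene has a copy on the Y chromosome, fell by 0.70 ± 0.15 (limma adjusted p = 0.003843). Rps12 and Rps15a, which complete the largest changes of the small subunit, fell by 0.98 ± 0.19 and 0.97 ± 0.24 (limma adjusted p = 0.001511 and 0.007103). All 8 of these small-subunit genes passed at 7 days against E21 under all 27 alternatives.

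**Figure D3:**
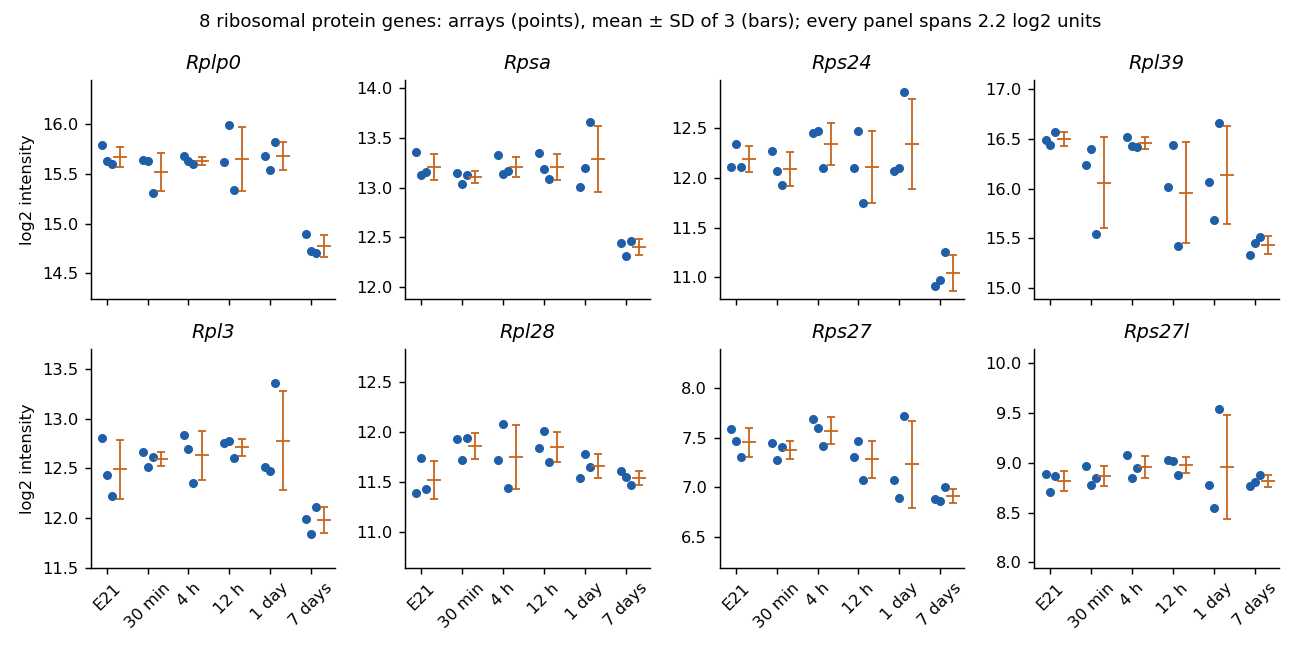
Log2 intensity is plotted by age for 8 genes, with the 3 arrays as points and their mean ± SD beside them, on panels of equal height. Rplp0, Rpsa and Rps24 drop at 7 days below every other array, Rpl39 overlaps the lowest array of 12 h, and Rpl28 and Rps27l stay within their earlier range.

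Among large-subunit genes the largest falls against E21 were those of Rpl39, a small protein of the peptide exit tunnel, and Rpl23a, which lies at the tunnel's mouth. Rpl39 read 16.49, 16.44 and 16.57 at E21, 16.24, 16.40 and 15.54 at 30 min, 16.52, 16.43 and 16.42 at 4 h, 16.02, 16.44 and 15.42 at 12 h, 16.07, 15.69 and 16.66 at 1 day, and 15.33, 15.45 and 15.51 at 7 days. The 7 day arrays were far under those of E21 but overlapped the lowest array of 12 h, and the change against E21 was −1.07 ± 0.26 (limma adjusted p = 0.007419). Rpl23a read 13.83, 13.88 and 13.71 at E21 and 12.99, 12.76 and 12.76 at 7 days, a separation wider than the spread of either age. Its change was −0.97 ± 0.16 (limma adjusted p = 0.0004642), and both calls held under all 27 alternatives.

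Rpl5 and Rpl11, which join 5S rRNA and can bind Mdm2, changed by −0.46 ± 0.14 and −0.45 ± 0.13 (limma adjusted p = 0.02753 and 0.01562). The Rpl5 call was lost without the first array of E21 or the first or second of 7 days, and that of Rpl11 without the third array of E21 or the first of 7 days. Rpl22, known for a role in lymphocyte development in mice, changed by −0.46 ± 0.11 (limma adjusted p = 0.007346). The genes that did not pass against E21 included Rpl3 of the peptidyl transferase centre (−0.51 ± 0.21, limma adjusted p = 0.09213), Rpl13a, known from interferon-gamma control of translation (−0.48 ± 0.18, limma adjusted p = 0.06882), and Rpl10, which joins the subunit late (−0.33 ± 0.12, limma adjusted p = 0.06793). Rpl10 read 10.40, 10.30 and 10.45 at E21 and 10.02, 9.98 and 10.15 at 7 days. Its arrays of these ages did not overlap, yet the difference missed the threshold.

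The 21 genes that did not pass against E21 were not all alike. Rps21, Rps15, Rpl28 and Rpl30 changed by −0.07 ± 0.14, −0.06 ± 0.25, 0.02 ± 0.15 and 0.04 ± 0.18. Rpl28 read 11.39, 11.74 and 11.43 at E21, 11.93, 11.72 and 11.94 at 30 min, 11.72, 12.08 and 11.44 at 4 h, 11.84, 12.01 and 11.70 at 12 h, 11.54, 11.78 and 11.65 at 1 day, and 11.61, 11.55 and 11.47 at 7 days. Its arrays of E21 and 7 days overlapped, and those of 30 min and 12 h lay above those of 7 days. Rpl10, Rpl13a, Rpl8 and Rpl3 instead had lower means at 7 days, with limma adjusted p from 0.06793 to 0.09213. Rps29 hardly varied at all, and why was not tested. It read 19.65 on 15 of the 18 arrays and 19.61 to 19.64 on the others, and its 4 clusters, at 16.04 to 19.65, each varied by at most 0.04 over all arrays. Of all 24753 features 28 varied by less than 0.05, and 27 of those lay above 16 on the log2 scale on every array.

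Against 1 day, too, 49 of the 70 genes were lower at 7 days and none was higher, beside 18.2% of all genes that passed and 10% that passed as lower. The median change was −0.66, and the calls ran from −0.33 to −1.30. Both comparisons use the 7 day arrays, and 41 genes passed in both. The largest falls were those of Rps24 (−1.30 ± 0.21, limma adjusted p = 0.0005057), Rps2 at the mRNA entry channel (−1.12 ± 0.21, 0.001586), Rps3 (−1.07 ± 0.21, 0.002282), Rps20 of the subunit's head (−1.07 ± 0.23, 0.004602), Rpl13 (−0.97 ± 0.25, 0.01445) and Rpl10a (−0.96 ± 0.21, 0.004783). Rpl13 lost its call without the third array of 1 day or the second of 7 days, and the other 5 kept theirs whichever array was left out. The third array of 1 day, which read high for nearly all members, weighs on this comparison. Without it 25 genes passed and the median change was −0.45. Without the first or the second array of 7 days 32 and 25 passed, and with only these 2 ages in the fit 20 passed.

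Rpl3, Rpl13a, Rpl7, Rpl8, Rpl15, Rpl18, Rpl36 and Rps14 passed against 1 day and not against E21. Rpl3 read 12.51, 12.47 and 13.36 at 1 day and 11.99, 11.84 and 12.11 at 7 days, a change of −0.80 ± 0.21 (limma adjusted p = 0.01257), with the high 1 day value on the third array. That call was lost without this array or without the second of 7 days. Rpl39 and Rps27 passed against E21 and did not pass against 1 day (limma adjusted p = 0.07431 and 0.2451), and Rpl22 (limma adjusted p = 0.04755) lost its call against 1 day in 15 of the 18 fits that left out 1 array. Of the 70 genes 13 passed in neither comparison, Rpl10, Rpl26, Rpl28, Rpl29, Rpl30, Rpl34, Rpl38, Rpl3l, Rplp2, Rps15, Rps21, Rps27l and Rps29.

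Paralogs did not always follow their partners. Rps27 read 7.59, 7.47 and 7.30 at E21 and 6.88, 6.86 and 7.00 at 7 days, without overlap, and changed by −0.54 ± 0.17 (limma adjusted p = 0.03232). This call was lost without the first or second array of E21 or any one array of 7 days. Rps27l, which p53 induces in human cells, read 8.89, 8.71 and 8.87 at E21 and 8.77, 8.81 and 8.88 at 7 days, and changed by 0.00 ± 0.18. Within arrays, Rps27l minus Rps27 was 0.37 log2 higher at 7 days than over the other 15 arrays. An exact two-sided permutation test over the 816 ways to choose 3 of 18 arrays gave p = 0.002451, where the smallest possible p is 0.001225, and 0.007352 after adjustment over 6 pairs. Rpl36al1 against Rpl36a differed by 0.94 (adjusted exact p = 0.00735) and Rpl3l against Rpl3 by 0.81 (adjusted exact p = 0.007352). The other pairs were Rpl39l1 with Rpl39 (0.54, adjusted exact p = 0.2775), Rpl22l1 with Rpl22 (0.19, 0.3588) and Rpl7l1 with Rpl7 (0.04, 0.8419). Rpl3l and Rpl39l1 read below the array medians, where a change would be hard to see. This test and its pairs were chosen after the values were seen, a choice that the adjustment does not cover. Rpl3 and Rpl36a were by then known to lie at 7 days below all other 15 arrays. The p-values of the pairs are therefore a description and not support. Rpl10l1 was measured but was not paired with Rpl10. It read 7.42, 7.66 and 7.67 at E21 and 9.15, 8.37 and 7.27 at 7 days, with overlap.

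Ribosomal proteins whose symbols lie outside the rule gave both patterns. Rack1, a scaffold on the head of the small subunit, read 14.73, 14.57 and 14.38 at E21 and 13.67, 13.48 and 13.81 at 7 days, with no overlap, a change of −0.91 ± 0.16 (limma adjusted p = 0.0008955). Fau, whose product is cleaved to yield Rps30, changed by −0.65 ± 0.20 (limma adjusted p = 0.02665), a call lost without the first or the third array of E21 or the first or second of 7 days. The paralogs Rpl22l1 (−0.14 ± 0.23), Rpl7l1 (−0.16 ± 0.19), Rpl36al1 (0.27 ± 0.15) and Rpl39l1 (−0.03 ± 0.21) did not pass.

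Ribosomal protein genes have many processed copies in the genome, and probes may not tell a gene from its copies. By their names, the brightest clusters of Rps24, Rps2, Rps18, Rps14, Rps21 and Rpl37 lie on another chromosome than the annotated start. Those of others, such as Rps19 and Rpl39, are named as unmapped. For 22 of the 70 genes several clusters carried the symbol, up to 8 for Rpl39. Of all 109 clusters 75 were lower at 7 days against E21 and none higher, where 9.87% of the 19837 clusters with 1 symbol were lower. That fit of every cluster was added after the data were seen. Among the 39 clusters that were not the brightest of their gene, 26 were lower. Clusters of one gene differed in level by a median of 4.3 log2 units and in change by a median of 0.09.

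All 8 Rpl39 clusters were lower, with changes of −0.84 to −1.21 at E21 levels from 7.25 to 16.50. Some Rpl39 clusters had the same mean at every age, as had some Rps29 clusters, so not all clusters are separate readings. All 3 Rps20 clusters were lower (−0.80 to −0.93, levels 7.93 to 16.32), and none of the 3 Rps21 clusters passed (−0.07 to 0.00, levels 9.57 to 15.45). Rpl35a alone had clusters whose calls disagreed, with 4 of 6 lower and changes from −0.36 to −1.06. In 15 genes every cluster was called lower. Symbols with a further suffix, mostly copies in the annotation, numbered 152, a list drawn up after values were seen. Of these 40 were lower at 7 days against E21 (10% of all genes) and none higher, with a median change of −0.44.

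**Figure D4:**
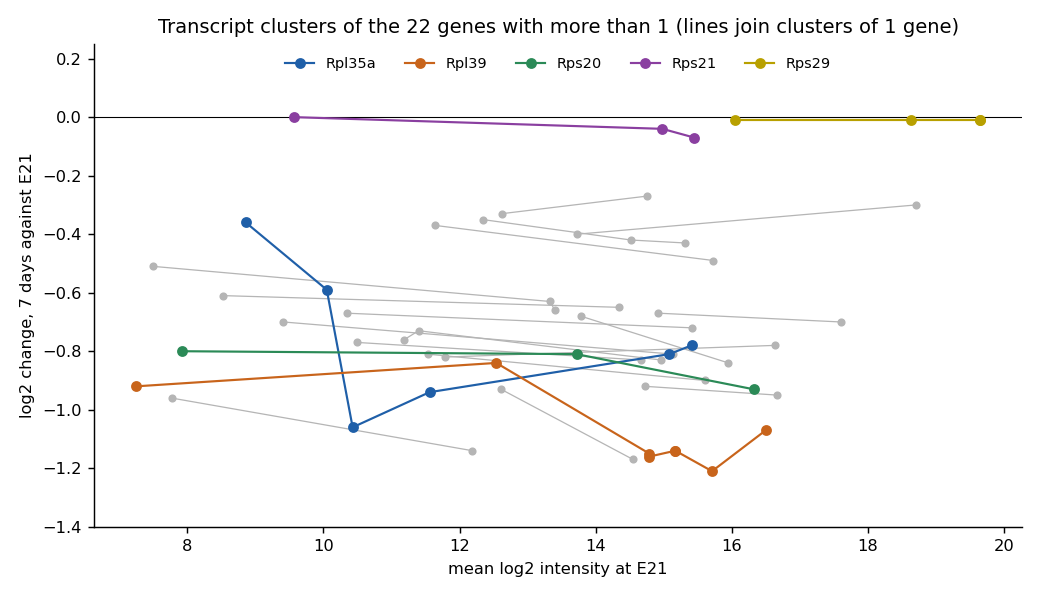
Each point is a transcript cluster of the 22 genes that have several, placed by its mean log2 intensity at E21 and its log2 change at 7 days against E21, with lines joining clusters of one gene. Clusters of one gene mostly keep a like change over several log2 units of level, as in Rps20 and Rps21, while the 6 of Rpl35a spread from −0.36 to −1.06.

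Mitochondrial ribosomal proteins, which build the separate ribosome inside mitochondria, gave other counts, a difference that was not tested. Of 72 measured, 10 were higher and 1 lower at 7 days against E21, with a median change of 0.11, beside 49 of 70 lower and −0.58 for the cytosolic genes. Of all genes 22.8% passed there in either direction and 10% as lower. Mitochondrial ribosomal proteins thus passed no more often than all genes, and the 10 that rose are not read as a trait of the list. Against 1 day 2 were higher and 3 lower, with a median of 0.01. On the arrays of 7 days their median relative to E21 was 0.28, 0.05 and 0.02, where the cytosolic genes read −0.61, −0.71 and −0.42.

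A further list held translation factors and other proteins, such as Npm1, Hnrnpa1 and Naca, whose mRNAs are known in mammals as TOP mRNAs (their starts were not looked up here). Of 17 measured, 6 fell at 7 days against E21 and none rose, with a median change of −0.34, and 10 fell against 1 day. In each of these comparisons 10% of all genes passed as lower. Npm1, a nucleolar chaperone of ribosome assembly, read 15.97, 15.39 and 15.26 at E21 and 13.96, 13.74 and 14.17 at 7 days. Its fall of 1.59 ± 0.22 on the log2 scale exceeded that of every ribosomal protein measured (limma adjusted p = 9.146e-05). Eef2, the translocation factor of elongation, changed by −0.55 ± 0.11 (limma adjusted p = 0.002045), Naca of the nascent chain complex by −0.79 ± 0.20 (0.009824) and Hnrnpa1, an RNA-binding protein, by −0.75 ± 0.22 (0.02016). The Naca call was lost without the first array of E21, and that of Hnrnpa1 without either the first or second of E21 or the second or the third of 7 days. Eef1a1 lay between 19.64 and 19.90 on every array, close to the upper limit of the table.

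Genes of Myc and RNA polymerase I, which set ribosome number, passed the test at 4 h as well as at 7 days. Of 23 genes, 6 were higher at 4 h against E21, when no ribosomal protein gene passed, and the list median was 0.39. The share of all genes that passed there in either direction was 4.71%. Rrn3, a polymerase I initiation factor, rose by 1.21 ± 0.21 (limma adjusted p = 0.004659), Tsr1, needed for small-subunit maturation, by 1.26 ± 0.23 (0.007008) and Nmd3, the export adaptor of the large subunit, by 0.88 ± 0.21 (0.02543). Rrn3 and Tsr1 passed whichever array was left out, and Nmd3 did not pass without the second or the third array of E21 or the first or second of 4 h. Myc read 9.65, 9.18 and 8.47 at E21, 8.73, 9.68 and 10.62 at 30 min, 10.98, 11.02 and 10.26 at 4 h, 8.28, 8.43 and 7.63 at 12 h, 8.01, 8.31 and 9.24 at 1 day, and 7.58, 6.83 and 7.02 at 7 days. It was highest at 4 h, with no overlap with E21, and lowest at 7 days. The 4 h change of 1.65 ± 0.44 was just past the threshold (limma adjusted p = 0.04612) and kept its call in 7 of 18 fits that left out 1 array.

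At 7 days against E21, 9 of the 23 were lower (10% of all genes) and none higher, with a median of −0.48. They included Myc (−1.95 ± 0.44, limma adjusted p = 0.004587), its antagonist Mxd1 (−2.03 ± 0.27, 7.305e-05) and the nucleolar proteins Nop56 (−1.07 ± 0.29, 0.01398) and Nop58 (−1.11 ± 0.34, 0.02591). The Nop56 call was lost without the first array of E21 or the second of 7 days, and that of Nop58 without either of these, the third of E21 or the third of 7 days.

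Of 21 genes of mTORC1 signalling, Mtor and Mlst8 were higher at 7 days (0.31 ± 0.11 and 0.37 ± 0.11, limma adjusted p = 0.04531 and 0.0252) and the stress-induced inhibitor Sesn1 was lower (−0.93 ± 0.23, 0.008761), with a list median of 0.06. Genes of this list passed at 7 days against E21 no more often than all genes (22.8%). The Mtor call was lost in 11 and the Mlst8 call in 4 of the 18 fits that left out 1 array. None of 9 import and assembly factors passed at 7 days against E21 in limma, where their lowest adjusted p was 0.1419 and 1 of them had an unadjusted p under 0.05. At 4 h Zfp622, which acts in late maturation of the large subunit, was higher (2.32 ± 0.40, limma adjusted p = 0.004461). Of 9 p53 targets, 3 were higher at 4 h, Cdkn1a, Ccng1 and Sesn1 (1.91 ± 0.28, 1.31 ± 0.17 and 1.08 ± 0.23), where 4.71% of all genes passed. Sesn1 lost its 4 h call without the second array of E21 or the first or second of 4 h. At 7 days against E21, 2 of the 9 were higher (Plk2 and Zmat3) and 2 lower (Sesn1 and Mdm2), beside 22.8% of all genes that passed. The Mdm2 call was lost in 5 of the 18 fits that left out 1 array.

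**Figure D5:**
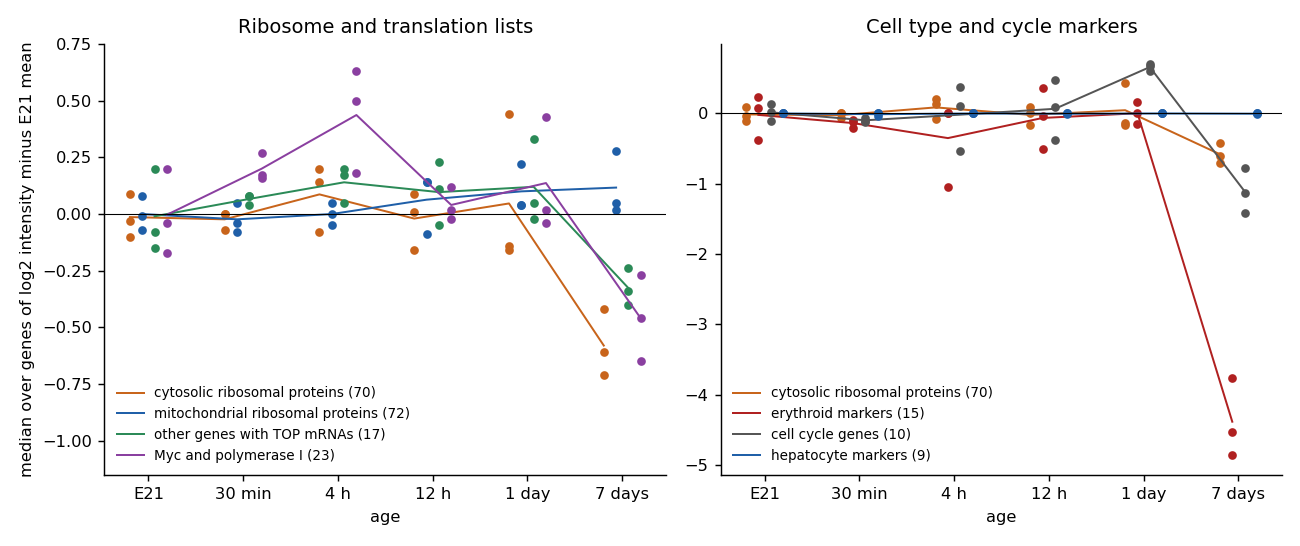
Points are the median over a list's genes of log2 intensity minus E21 mean on each array, and lines join the age means of these points. Cytosolic ribosomal proteins, the other genes with TOP mRNAs and Myc and polymerase I genes lie below 0 at 7 days while mitochondrial ribosomal proteins do not, and the erythroid markers drop between 1 day and 7 days, to −3.76, −4.86 and −4.53.

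Markers of blood-forming cells, which fill the fetal liver, fell over the same interval. Of 15 erythroid markers 14 were lower at 7 days against E21 (10% of all genes) and none higher, with a median change of −4.41. The exception, Hba-a1, stood at 19.92 to 19.93 on every array, at the top of the table. The summed intensity of the other 14 was 193600 to 470000 on the 15 earlier arrays and 19310 to 36480 at 7 days, and with Hba-a1 it was at least 1192000 and at most 1468000 before 7 days and 1019000 to 1027000 then. Klf1, the erythroid transcription factor, read 10.53, 10.24 and 9.93 at E21 and 6.15, 5.56 and 5.96 at 7 days. No erythroid marker passed in limma in the 7 comparisons among earlier ages, and 0 did at an unadjusted p under 0.05. The erythroid median was −1.05 on the third array of 4 h and −0.51 on the third of 12 h, where the ribosomal protein genes read −0.08 and −0.16. Both lists had the lowest median of the age on these arrays. The ribosomal protein genes read 0.20 and 0.14 on the other arrays of 4 h and 0.01 and 0.09 on those of 12 h. A link between the lists was not tested.

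Of the granulocyte markers 6 of 8 were lower at 7 days (median −2.63) and of the megakaryocyte markers 3 of 3 (−5.44), while 8 of 10 macrophage markers (1.5) and 5 of 5 endothelial markers (1.23) were higher. Summed granulocyte intensity was 68260 to 255800 before 7 days and 16210 to 50590 then, and the megakaryocyte sum 5686 to 24210 and 404 to 604.6. The macrophage sum was 15940 to 35850 and then 41500 to 59800, and the endothelial sum 18620 to 40150 and then 50600 to 62500. Of the B cell, T and NK cell, stellate and cholangiocyte markers 1 of 5 was lower, 1 of 5 lower, 2 of 5 higher and 1 of 4 higher. Among all genes 22.8% passed at 7 days against E21 in either direction and 10% as lower. Of 10 cell cycle genes 8 were lower (−1.13). The cell cycle genes read 0.67, 0.71 and 0.60 at 1 day, where the ribosomal protein genes read −0.16, −0.14 and 0.44. Among the 9 hepatocyte markers 3 were higher and 1 lower, with a median of −0.01. That median includes Alb, Ahsg and Fgb near the top of the table, and Ttr and Serpina1, which were nearly the same on most arrays. The part of these cell types in the fall of the ribosomal proteins was not tested.

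Over the 18 arrays the 10 genes outside the rule that tracked the members' mean most closely had Pearson r of 0.941 to 0.966 with it, as a description. They were Eef1d (0.966), Rack1 (0.957), Eif4a1 (0.953), Eif2s1 (0.952), Npm1 (0.948), Rps26l6 (0.946), Rpl10al3, Mta2, LOC100364427 and LOC100360573. Eef1d is a subunit of the elongation factor complex, and Eif4a1 and Eif2s1 are initiation factors. With the arrays of 7 days left out, r for these 10 ran from 0.784 to 0.922.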

How the data were processed

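Total RNA of rat liver was measured on 18 arrays, 3 per age. RMA and the Affymetrix Expression Console 1.0 are named in the submitters' processing notes, without their roles. The deposited values were linear intensities per transcript cluster, from 4.24 to 999969, a range the notes do not explain, where a log2 scale had been assumed. No detection call was used. Their log2 was taken from the deposited intensities, with no constant and no further normalization. Clusters with 1 symbol (19837) were kept, those with several (420) or none (4496) left out, and the brightest per gene used.

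Each gene was fitted with limma 3.58.1 (R 4.3.3) with 1 mean for each age across the 18 arrays and eBayes, and 9 comparisons and an F test were made, two-sided, with Benjamini-Hochberg adjustment over 18926 genes. The number of arrays limits precision. The code was tested on simulated data. Values after ± are standard errors.

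The members and gene lists were chosen with earlier results of these data known. Named genes were those with the largest called changes per comparison, the highest, lowest, most and least variable members, and a fixed list of members, partners and called list genes. Single-gene calls were recomputed under 27 alternatives, counts also on a rank percentile scale. Same-numbered arrays correlated above 0.1 in all 3 pairs in 2 of 9 comparisons, so the numbers were not taken to pair arrays.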

Additional observations from a re-analysis of the deposited data

How the results depend on the processing

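Of 560 alternative values of the counts and medians 540 stayed close to the main value, by a rule that ignored the sign of a median. For a median, close meant a move of less than 0.17 log2 units, and for a count a bounded ratio to the main count. Of 33 named calls recomputed 27 times each, 826 of 891 stayed, 65 lost the threshold and 0 changed sign. Array weights gave 1 member called at 4 h against E21, 1 at 12 h against E21 and 2 at 12 h against 4 h. With only the 2 ages in the fit, and so fewer residual degrees of freedom, 20 were called at 7 days against 1 day. On a rank percentile scale 27, 18 and 17 were called at 7 days against E21, at 7 days against 1 day and over all ages. A further fit left out 3 uneven arrays, the first of E21 and the third of 30 min and of 4 h. It called 1 member at 12 h against E21 and 29 at 7 days against E21. The cause was not tested for the rank scale or the weights.

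Leaving out 1 array gave 29 to 52 members called at 7 days against E21, 25 to 54 at 7 days against 1 day, 13 to 51 over all ages (13 and 20 without the second and first array of 7 days) and 0 to 2 at 1 day against E21. Medians ran from −0.13 to 0.14 at 1 day against E21, −0.15 to 0.13 at 1 day against 12 h and −0.77 to −0.45 at 7 days against 1 day. With the replicate number as a block, which the labels do not explain, 43, 41 and 36 members were called at 7 days against E21, 7 days against 1 day and over all ages, and 0 elsewhere. Medians were not computed on the rank scale. Of the 70 members 67 had a mean of at least 7.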
